A study of Rattus norvegicus with 48 samples.

Results

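The 100 genes called testis-restricted here had abundant transcripts in rat testis that were almost absent from rat liver. Liver was the only other tissue sequenced, so restriction was judged against liver alone and other organs were not examined. The 100 genes were chosen from deposited read counts in 2 steps. First, a gene had to average under 1 CPM (reads of the gene per 1000000 reads assigned to genes) in the 6 vehicle liver libraries, which 21218 of 32545 genes did. Of those, the 100 with the highest mean CPM in the 6 vehicle testis libraries were taken. Their level in vehicle liver and vehicle testis is therefore what chose them, and it is given below as a description without a test. How evenly they were measured across libraries, and how they behaved after myclobutanil, did not enter the choice, although every comparison with vehicle reuses the vehicle libraries that did.

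The adult testis consists largely of germ cells in the seminiferous tubules, where spermatogonia divide, spermatocytes pass through meiosis and haploid spermatids are remodelled into sperm, alongside the somatic Sertoli and Leydig cells. Spermatocytes and spermatids transcribe many genes that other organs keep silent, for the sperm tail, the acrosome and the packing of DNA. Transcripts restricted to the testis are for that reason commonly read as a measure of germ cell content, and they fall together when germ cells are lost. In RNA from whole tissue, fewer cells of a type and less RNA per cell cannot be told apart.

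Adult male Sprague-Dawley rats of the Crl:CD (SD) stock, 8 to 10 weeks old at the start, were dosed by gavage once a day for 14 days. The 3 treated groups received 30, 150 or 400 mg/kg of the triazole fungicide myclobutanil and the fourth corn oil alone at 4 ml/kg as the vehicle; the labels give the same volume of corn oil for the treated animals. Poly-A RNA from liver and testis was sequenced, with 6 libraries in each of the 4 dose groups of each tissue. The number in each library's title, 2403 to 2426, is used here to name it, and no label ties it to an animal, so every p-value measures the spread between libraries, which may be technical. Testis libraries held 30.9 to 49.2 M gene reads and liver libraries 31.8 to 49.1 M. The files name genes by Ensembl ID alone, and 0 of the 100 IDs could be matched to a symbol, so no member's function is stated and the germ cell origin of the list was not checked against known markers.

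In vehicle testis, the 100 genes together took 15.4% ± 0.315 of all gene reads (SD, n = 6). They included 9 of the 10 most abundant genes of the tissue, 32 of the 50 most abundant and 54 of the 100 most abundant. The first of them stood second among all genes and the last stood at rank 214. All 21218 genes under 1 CPM in vehicle liver took 35.0% of vehicle testis reads, and the 100 members held 43.9% of that share.

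Levels fell off quickly after a small group of leaders. ENSRNOG00000020863, the member with the most reads, averaged 6298 ± 164 CPM in vehicle testis and ENSRNOG00000017611, the next, 6245 ± 902 CPM (SD, n = 6 each). The median member was at 1028 CPM and the lowest at 623 CPM, a range of 10.1-fold. Over 4000 CPM stood 6 members, over 2000 CPM 23 and over 1000 CPM 50. The 5 most abundant members held 17.3% of the members' reads, the 10 most abundant 29.2%, and the 25 most abundant 51.5%. These are reads per gene and not per length of transcript, so the order of the members is an order of reads and not of molecules.

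**Figure D1:**
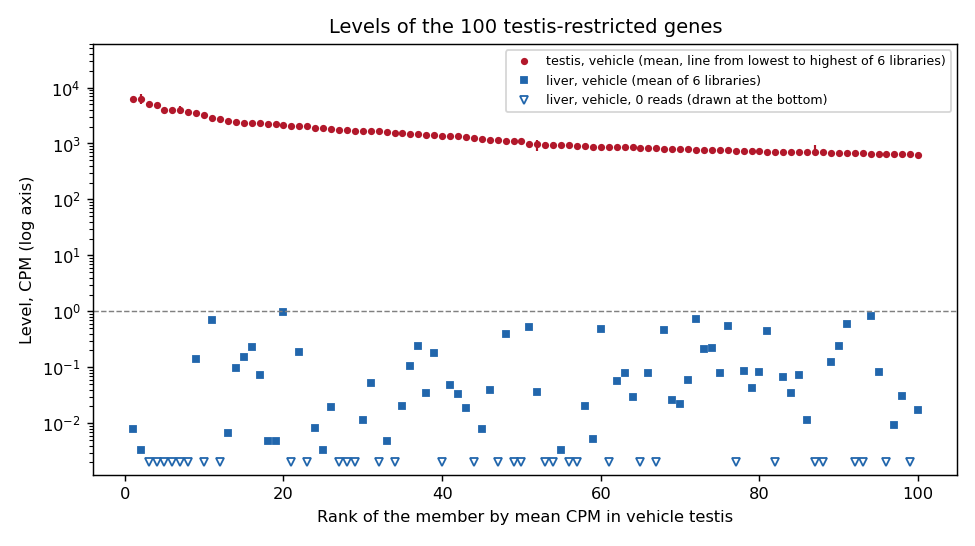
Mean level of each of the 100 testis-restricted genes in vehicle testis (red circles, with a line from the lowest to the highest of 6 libraries) and vehicle liver (blue squares), in CPM on a log axis, by rank in vehicle testis. Open triangles at the bottom mark the 35 members with 0 reads in every vehicle liver library, and the dashed line is the 1 CPM limit used to choose the members.

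In liver the same genes were close to the limit of detection. In the 6 vehicle libraries, 35 of the 100 had 0 reads, and 9 had 0 reads in all 24 liver libraries. With the limit that a count of 0 allows set at 3 reads, which is 0.0611 to 0.0943 CPM depending on the library, 57 members stayed at or below 3 reads in every liver library. Such limits cover counting error only. Below 0.1 CPM in vehicle liver were 78 members. All 100 together had 286 to 534 reads per vehicle liver library, or 10.3 ± 0.743 CPM (SD, n = 6), so their summed CPM was about 15000-fold higher in vehicle testis.

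The edges of the list were soft in testis and in liver. Ranks 98, 99 and 100 stood at 639.0, 638.8 and 623.3 CPM in vehicle testis, against 622.6, 619.0 and 618.0 CPM for the 3 restricted genes just outside. In vehicle liver, the members nearest the 1 CPM limit stood at 0.975, 0.829 and 0.715 CPM. Their SDs over the 6 libraries were 0.21, 0.21 and 0.30 CPM, and each was over 1 CPM in some vehicle library. The genes of sufficient testis level just above that limit stood at 1.12, 1.30 and 1.31 CPM. A liver limit of 0.5 or of 2 CPM would each have kept 93 of the 100. Choosing in the 400 mg/kg libraries would have kept 95, and choosing in the 30 mg/kg libraries 96.

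The members varied little between libraries of most groups on plain CPM. Their median coefficient of variation (CV, SD over mean of the 6 CPM values) was 4.03% in vehicle, 6.67% at 30 mg/kg, 4.76% at 150 mg/kg and 3.39% at 400 mg/kg. For all 17261 genes tested in testis, most of them far less abundant, the medians were 9.92%, 12.5%, 11.03% and 10.02% in the same order. The 113 other genes within the same range of level averaged 1 CPM or more in vehicle liver. Their medians were 3.18%, 5.33%, 4.15% and 3.05%. Some of the 113 lay just above that limit, 1 of them at 1.12 CPM in vehicle liver and 3443 CPM in vehicle testis. After TMM scaling (an edgeR factor that evens out the bulk of genes between libraries), the members' medians were 4.45%, 11.1%, 6.96% and 4.30%, and those of all genes tested 9.76%, 11.2%, 10.4% and 9.86%. At 30 mg/kg the members and all genes were close to each other on that scale. For the 113 other genes of the same level the TMM-scaled medians were 3.51%, 8.27%, 5.91% and 3.48%. The members' medians were thus higher than those of the 113 in every group on both scales. A plain CPM CV under 10% was reached by 96 members in vehicle, 77 at 30 mg/kg, 98 at 150 mg/kg and 98 at 400 mg/kg. Each member had 14035 to 307015 reads in each testis library, and counting error alone gives a CV of 0.844% at the fewest reads, below the CV of every member in vehicle and at 30 and 150 mg/kg.

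Over all 24 testis libraries, on plain CPM, the ratio of the highest to the lowest library ran from 1.11 to 1.89 over the members, with a median of 1.26, and was under 1.5 for 93 of them. The 113 other genes of the same level had a median ratio of 1.21. The same 10 members led the list in every one of the 24 libraries. ENSRNOG00000017611 came first in 15 libraries and ENSRNOG00000020863 in the other 9. As a description, the ranks of the members correlated between libraries at a Spearman rho of at least 0.92, with a median of 0.978 over the 276 pairs of libraries.

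Some members were less steady than the rest. The 2 leaders differed in this: over vehicle libraries 2403 to 2408, ENSRNOG00000020863 ranged from 6039 to 6459 CPM around a median of 6330, while ENSRNOG00000017611 ranged from 5098 to 7719 CPM around a median of 6120. The CV in vehicle was 2.60% for ENSRNOG00000020863 and 14.5% for ENSRNOG00000017611. At 400 mg/kg ENSRNOG00000017611 averaged 6701 ± 537 CPM, inside the range of the vehicle libraries. The largest CV in vehicle, 17.0%, belonged to ENSRNOG00000031106 (rank 87), which stood at 941 CPM in vehicle 2407 and at 613 to 699 CPM in the 5 other vehicle libraries.

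The widest ratio over the 24 libraries, 1.89, belonged to ENSRNOG00000005382 (rank 92). It stood at 375 CPM in the 30 mg/kg library 2413 and at 609 to 710 CPM in the other 23. That drop was not shared: the 100 members together took 14.8% of the reads of library 2413, within the range of its group. The steadiest member over the 24 libraries was ENSRNOG00000012260 (rank 91), with a ratio of 1.11. These 3 less steady members and the steadiest one were singled out after their values were seen.

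The summed share is the simplest single reading of the list. In vehicle testis the members took 15.2%, 15.0%, 15.4%, 15.9%, 15.4% and 15.3% of gene reads. At 30 mg/kg the shares were 14.4%, 14.1%, 14.9%, 16.7%, 14.8% and 15.0%, at 150 mg/kg 14.9%, 15.1%, 14.9%, 15.3%, 16.1% and 15.0%, and at 400 mg/kg 15.5%, 15.4%, 15.7%, 15.7%, 15.0% and 15.0%. All 4 groups overlap: the shares at 400 mg/kg ran from 14.95% to 15.74% and those in vehicle from 15.03% to 15.94%.

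As means, the share was 15.4% ± 0.315 in vehicle, 15.0% ± 0.899 at 30 mg/kg, 15.2% ± 0.471 at 150 mg/kg and 15.4% ± 0.330 at 400 mg/kg (SD, n = 6 each). No p-value is given for this sum, since its members were chosen on part of these libraries. Over all 24 libraries its CV was 3.56%, and the highest library was 1.18-fold above the lowest.

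**Figure D2:**
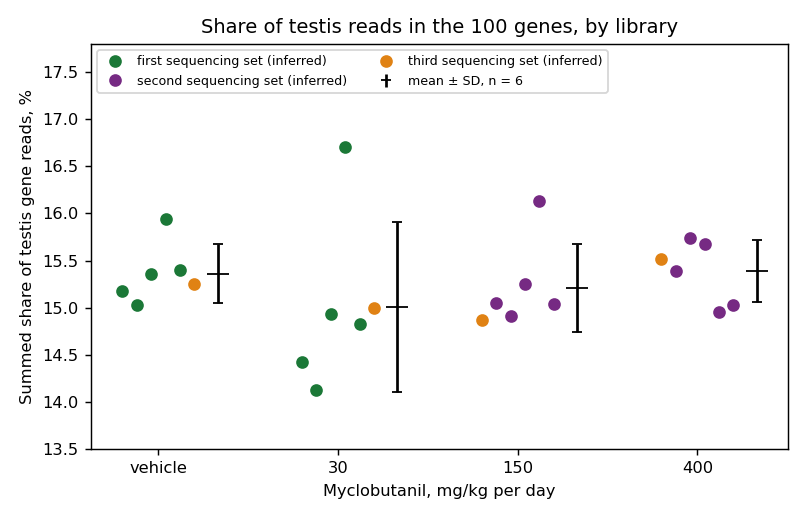
Share of testis gene reads taken by the 100 genes, in percent, for each of 24 libraries by dose of myclobutanil, with the mean and SD of 6 libraries beside each group; the axis does not start at 0. Colours mark 3 sequencing sets inferred from depth and mapping quality. The groups overlap, and the highest point is the 30 mg/kg library 2412 at 16.7%.

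The libraries could also be divided into sequencing sets, inferred from depth and mapping quality because the labels name no batch. In testis the first set was made of vehicle 2403 to 2407 and 30 mg/kg 2409 to 2413, the second of 150 mg/kg 2416 to 2420 and 400 mg/kg 2422 to 2426, and the third of 1 library of each dose. Leaving out the third set gave shares of 15.4% ± 0.347 in vehicle, 15.0% ± 1.01 at 30 mg/kg, 15.3% ± 0.493 at 150 mg/kg and 15.4% ± 0.362 at 400 mg/kg (SD, n = 5 each). In the third set alone the shares were 15.3% in vehicle, 15.0% at 30 mg/kg, 14.9% at 150 mg/kg and 15.5% at 400 mg/kg, 1 library each. Between 400 mg/kg and vehicle no other set holds both groups, so dose and set largely cannot be told apart there.

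After TMM scaling, most of the movement that the members did show was shared. On plain CPM less of the movement was shared. Part of the movement came from 1 library on both scales. The 30 mg/kg library 2412 was the highest of all 24 for 40 members, and the 30 mg/kg library 2410 the lowest for 29. After TMM scaling, 92 members were higher in 2412 than in 2410, with a median ratio of 1.33. On plain CPM it was 80 members and a median ratio of 1.15. The 113 other genes of the same level moved with them: 106 were higher in 2412 after TMM scaling, with a median ratio of 1.21, and 71 on plain CPM, with 1.05. Over all genes tested the median ratio was 0.977.

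These 2 libraries also had the extreme TMM factors, 0.914 for 2412 and 1.05 for 2410. Reads outside any gene made up 11.1% of the reads in 2412 and 11.9% in 2410. The part of composition or RNA quality in this difference was not tested. A second library of the same kind was 150 mg/kg 2419, in which 99 members lay above the mean of the other 5 libraries of the group, with a median ratio of 1.14 after TMM scaling and a TMM factor of 0.949.

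A principal component analysis put 60.4% of the members' variance over 24 libraries on the first component, on which 96 members had the same sign. On plain CPM the first component held 41.8%, with 78 members of 1 sign. Without library 2412 it held 51.2% after TMM scaling and 37.7% on plain CPM. The libraries at its ends were 2412 and 2419 on the high side and 2410 and 2409 on the low side, so that the 30 mg/kg group alone spanned the component from end to end. Libraries of all 4 dose groups lay on both sides of 0.

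**Figure D3:**
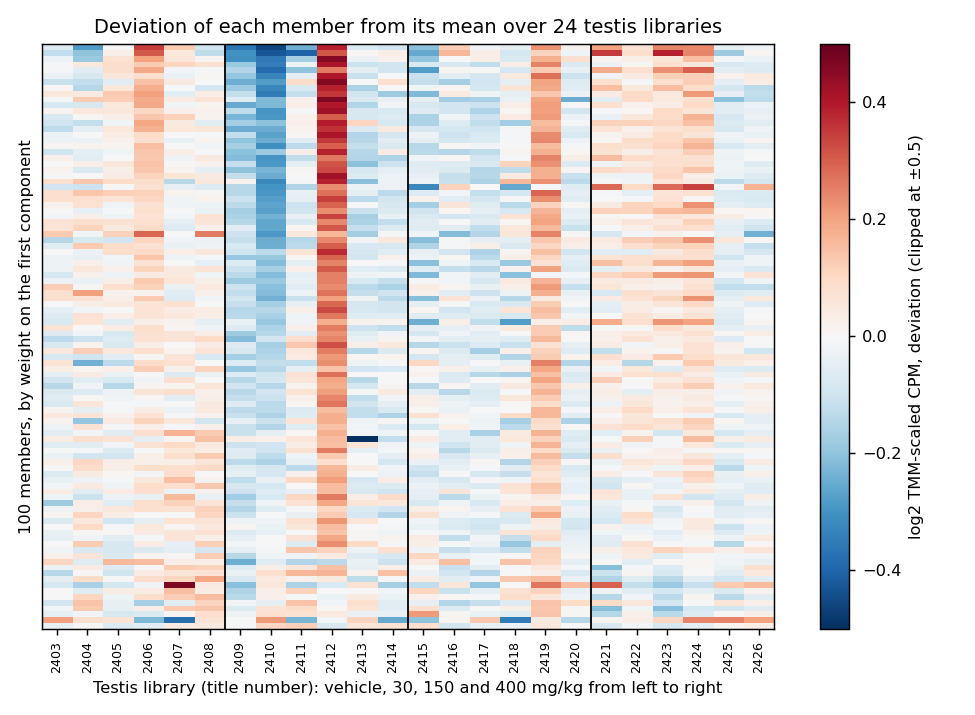
Deviation of each of the 100 members (1 line of cells each, ordered by weight on the first component) from its mean over 24 testis libraries, in log2 TMM-scaled CPM, clipped at 0.5 either way; black lines divide vehicle, 30, 150 and 400 mg/kg. Nearly the whole column of 30 mg/kg library 2412 is red and much of that of 2410 is blue, while the columns at 400 mg/kg are mostly pale.

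At 400 mg/kg the members as a group stood close to vehicle, relative to the other genes of the testis. TMM scaling evens out the bulk of genes and CPM is relative as well, so a change shared by most testis RNA would not show. Most libraries of these groups lie in different sequencing sets, so dose and set largely cannot be told apart. The median log2 fold change was -0.004 over the members and -0.003 over all 17261 genes tested, with 47 members positive and 53 negative. No member changed by more than 0.24 on the log2 scale in either direction. The 95% interval of the fold change lay within 1.25-fold for 95 members and within 1.5-fold for all 100. By edgeR's quasi-likelihood test with Benjamini-Hochberg adjustment over all genes tested, 3 members fell and 0 rose. The choice took the genes highest in these vehicle testis libraries, which favours falls over rises against vehicle. An unadjusted p under 0.05 was found for 10 members and for 3402 of all 17261 genes tested. Of all genes tested, 3.32% were called in this comparison, 1.85% higher and 1.47% lower, so 3 of 100 is close to the background.

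The 3 members that fell changed by little. ENSRNOG00000025359 (rank 64) stood at 704 to 806 CPM at 400 mg/kg, with a median of 767, and at 798 to 900 CPM in vehicle, with a median of 857. The groups touch, since 1 library at 400 mg/kg lay above the lowest vehicle library. Its log2 fold change was -0.17 (SE 0.046, edgeR adjusted p = 0.0369).

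ENSRNOG00000020686 (rank 45) stood at 1017 to 1106 CPM at 400 mg/kg, with a median of 1062, and at 1111 to 1235 CPM in vehicle, with a median of 1192. Its groups do not overlap on plain CPM, though they do after TMM scaling. Its log2 fold change was -0.15 (SE 0.041, edgeR adjusted p = 0.0381). ENSRNOG00000000486 (rank 95) stood at 558 to 601 CPM at 400 mg/kg, with a median of 586, and at 607 to 700 CPM in vehicle, with a median of 655.5. Its groups do not overlap on plain CPM either, and its log2 fold change was -0.17 (SE 0.045, edgeR adjusted p = 0.0405).

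In the third sequencing set, the 400 mg/kg library 2421 and the vehicle library 2408 stood at 708 against 892 CPM in vehicle for ENSRNOG00000025359, 1022 against 1235 CPM in vehicle for ENSRNOG00000020686 and 560 against 700 CPM in vehicle for ENSRNOG00000000486. That pair is among the libraries that gave the calls and is no separate support. Vehicle 2408, titled vehicle at dose 0 but carrying myclobutanil as its exposure label, was the highest of its group for ENSRNOG00000020686 and ENSRNOG00000000486. In edgeR fits that include the sequencing set, 0 members were called with 2 or 3 levels of the set, with 4 and 5 at an unadjusted p under 0.05. Those fits called 1 and 0 of all 17261 genes tested, so their counts say nothing particular about the members. The calls also ended without vehicle 2404, 2406, 2407 or 2408 or 400 mg/kg 2421, 2423, 2425 or 2426, and 1 was left without 400 mg/kg 2424. Over 24 alternatives the fold changes stayed negative, between -0.26 and -0.12, while the adjusted p ran from 0.0096 to 0.631, from 0.00598 to 0.541 and from 0.0125 to 0.53 for the 3 genes in the order given here.

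On the upper side, ENSRNOG00000030150 (rank 84) had the highest fold change, 0.24 (SE 0.078, edgeR adjusted p = 0.0831), which did not pass the test. It stood at 736 to 907 CPM at 400 mg/kg, with a median of 859, and at 684 to 759 CPM in vehicle, with a median of 702. The 2 lowest libraries at 400 mg/kg were 2425 at 736 CPM and 2422 at 781 CPM, and only 2425 lay within the vehicle range. DESeq2, limma-voom and an edgeR fit of the 12 libraries alone did call it; they called 5, 5 and 6 members, and 6.51%, 6.59% and 4.68% of all genes tested.

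On plain CPM the 6 libraries at 400 mg/kg lay wholly above the 6 vehicle libraries for 1 member and wholly below for 4, where 2.87% of all genes tested did not overlap. After TMM scaling it was 1 above and 1 below, with 3.11% of all genes. ENSRNOG00000022511 (rank 33) was the member above, at 1682 to 1765 CPM at 400 mg/kg and 1535 to 1654 CPM in vehicle, and it did not pass the test (0.12, SE 0.041, edgeR adjusted p = 0.0834).

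**Figure D4:**
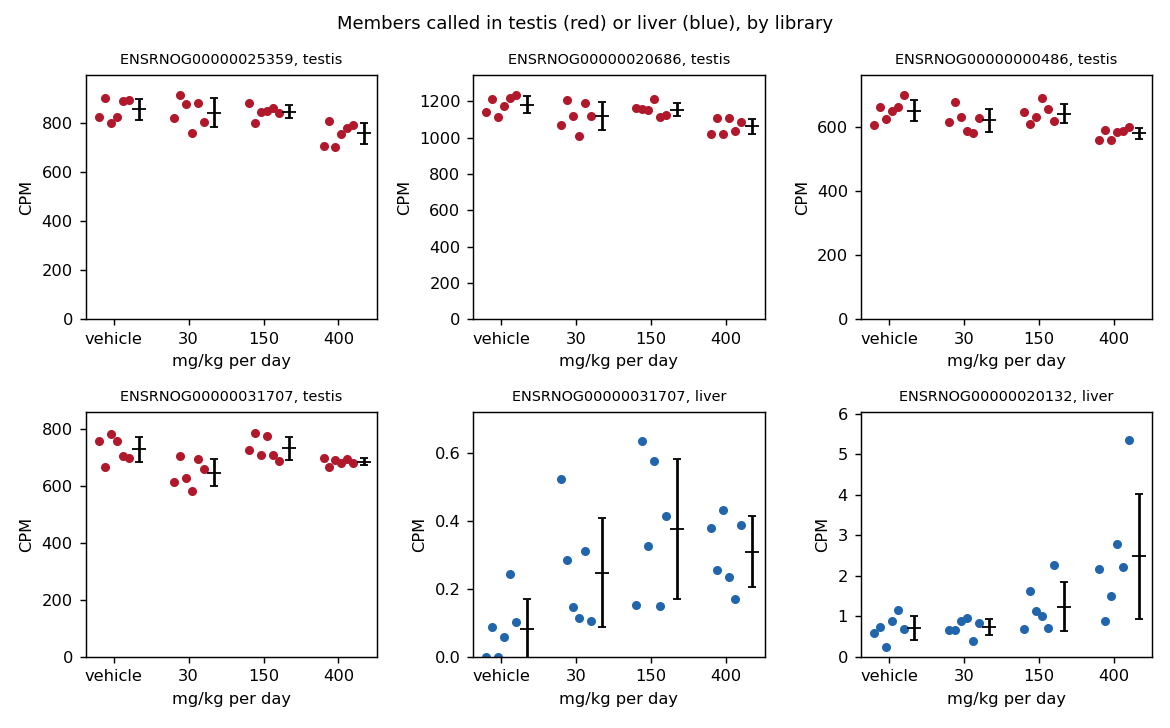
CPM of 3 members called lower in testis at 400 mg/kg, of 1 member called over the 4 groups in testis and of 2 members called higher in liver at 400 mg/kg, by dose, with each library as a point and the mean ± SD of 6 beside each group. Testis axes (red points) start at 0 and show shifts that are small beside the level; liver axes (blue points) span less than 1 CPM for ENSRNOG00000031707 and up to 5.35 CPM for ENSRNOG00000020132.

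At the lower doses no member was called against vehicle. At 150 mg/kg, edgeR called 0 of 100 (background 0.0232% of all genes). DESeq2 and limma-voom also called 0, with no share over all genes given for them. By edgeR, 2 members and 1080 of all 17261 genes tested had an unadjusted p under 0.05. The median log2 fold change was -0.032, with 18 members positive, and all but 1 of the intervals lay within 1.25-fold. Of the next 100 restricted genes in rank 18 were positive as well, and of all 17261 genes tested 8636 were. The lean was thus not particular to the members. Without library 2419 the members' median was -0.063, with 4 of them positive. At 30 mg/kg, edgeR called 0 of 100 (background 0.00579%), and 10 members and 1808 of all genes had an unadjusted p under 0.05. DESeq2 called 1, lower, and 0.678% of all genes, and limma-voom 0 and 0.0579%. The median there was -0.044 by edgeR, with 26 members positive, where 36 of the next 100 restricted genes and 8641 of all genes were. By limma-voom, in which libraries do not count equally, it was -0.092. There 42 members were at an unadjusted p under 0.05, where 14.2% of all genes were. Within the first sequencing set, 5 libraries against 5, the median was -0.032 and edgeR called 0 members, with 1 at an unadjusted p under 0.05. No share over all genes is given beside these counts. Without library 2412 the median at 30 mg/kg against vehicle was -0.103, with 11 members positive. In that fit 0 members and 0.351% of all genes were called, and 55 members were at an unadjusted p under 0.05, where 14.8% of all genes were. Without library 2410 the median was -0.009, with 44 members positive, and without 2409 it was -0.016, with 37. The size of the median at 30 mg/kg thus rests on single libraries. The comparisons with vehicle share their 6 vehicle libraries, so their medians are not independent of each other.

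Comparisons among the myclobutanil doses do not use any library that chose the members. Between 400 and 150 mg/kg edgeR called 0 members (background 0.776%). By edgeR, 9 members and 2526 of all 17261 genes tested had an unadjusted p under 0.05. The median log2 fold change was 0.024 with 74 members positive, where 68 of the next 100 restricted genes and 8327 of all genes were. DESeq2 called 2 and limma-voom 1, all higher, and 2.32% and 1.36% of all genes. Within the second sequencing set, 5 libraries against 5, edgeR called 0, with 8 at an unadjusted p under 0.05, and the median was 0.025. These counts too have no share over all genes beside them. Between 400 and 30 mg/kg edgeR called 0 (background 0.0521%), with a median of 0.035. By edgeR, 11 members and 2054 of all genes had an unadjusted p under 0.05. DESeq2 called 0 and limma-voom 1, higher, and 0.73% and 0.226% of all genes. Between 150 and 30 mg/kg edgeR called 0 (background 0.0116%), with 6 at an unadjusted p under 0.05 and a median of 0.013; DESeq2 called 1, higher, and limma-voom 0, and 0.307% and 0.0463% of all genes.

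Over these 3 comparisons the fold changes lay between -0.14 and 0.28 on the log2 scale, and every 95% interval lay within 1.5-fold. Those within 1.25-fold numbered 93, 94 and 98 of 100, in the order in which the comparisons are given above. The highest was again that of ENSRNOG00000030150, at 0.28 between 400 and 150 mg/kg (SE 0.078, edgeR adjusted p = 0.0803). Without 150 mg/kg 2416 or without 400 mg/kg 2425, 1 member was called between 400 and 150 mg/kg, higher at 400 mg/kg, with 1.42% and 1.3% of all genes. Without library 2412, 3 members were called between 400 and 30 mg/kg, all higher at 400 mg/kg, where 0.34% of all genes were called. In that fit the median was 0.104 over the members and -0.004 over all genes, and 51 members were at an unadjusted p under 0.05, where 14.3% of all genes were. Without library 2410 the median was 0.009. Between 150 and 30 mg/kg the median was 0.069 without 2412, -0.018 without 2410, -0.005 without 2409 and -0.02 without 2419.

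**Figure D5:**
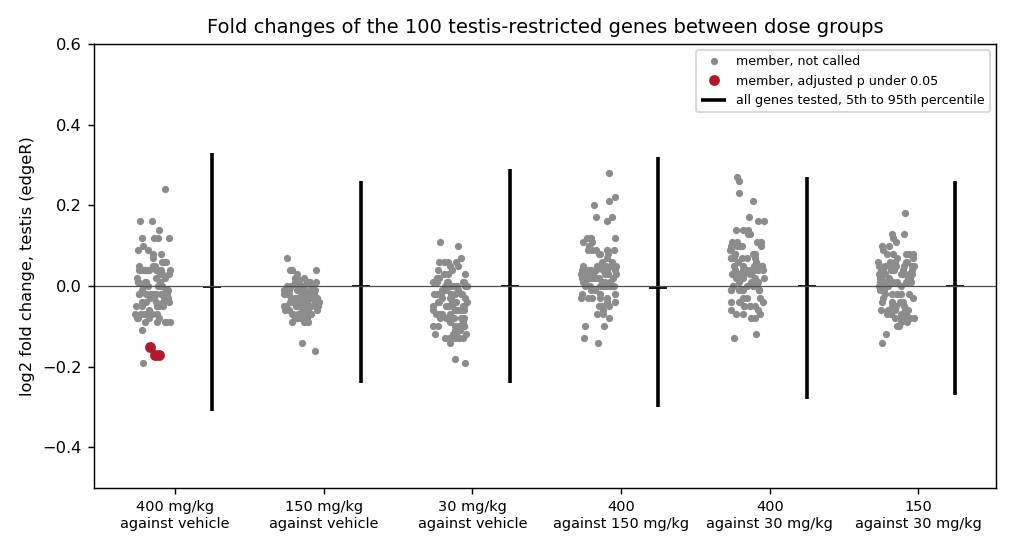
Log2 fold changes of the 100 members in testis (points) for the 6 pairs of dose groups, as fitted by edgeR, beside the range from the 5th to the 95th percentile of all 17261 genes tested (black bars, with a tick at the median). Members lie between -0.19 and 0.28 in all 6 comparisons, and the 3 called members, larger and red, are in the comparison of 400 mg/kg with vehicle.

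Tested for any difference among 30, 150 and 400 mg/kg, 0 members were called by edgeR (background 0.301%), with a lowest adjusted p of 0.0904. By edgeR, 11 members and 2651 of all 17261 genes tested had an unadjusted p under 0.05. DESeq2 called 2 members and limma-voom 0, and 2.66% and 0.556% of all genes. Among all 4 dose groups 1 member was called (background 1.17%), ENSRNOG00000031707 (rank 80), with an edgeR adjusted p of 0.0491. It averaged 729 ± 44.8 CPM in vehicle, 648 ± 47.98 CPM at 30 mg/kg, 734 ± 39.7 CPM at 150 mg/kg and 687 ± 12.3 CPM at 400 mg/kg (SD, n = 6 each). The lowest group was thus the lowest dose, the groups overlap, and the order did not follow dose. This call ended with RLE size factors, with library totals and with the sequencing set in the fit, and 0 members were called in 19 of the 24 fits without 1 library. The count was 1 without vehicle 2404, 30 mg/kg 2413, 150 mg/kg 2420 or 400 mg/kg 2422, and 7 without 30 mg/kg 2412, where 2.87% of all genes were called. DESeq2 and limma-voom each called 6 members, and 5.74% and 3.24% of all genes.

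Over all 4 groups, the order of the means did not run with dose either. Among the 3 treated groups alone, the mean summed share was 15.0% at 30, 15.2% at 150 and 15.4% at 400 mg/kg, with overlapping libraries. The members' median fold changes among these doses were positive, and that of 150 against 30 mg/kg changed sign without single libraries. The counts that follow are for the members only and have no share over all genes beside them. After TMM scaling the lowest mean belonged to vehicle for 8 members, to 30 mg/kg for 46, to 150 mg/kg for 33 and to 400 mg/kg for 13. The highest belonged to vehicle for 43, to 30 mg/kg for 10, to 150 mg/kg for 5 and to 400 mg/kg for 42. On plain CPM the lowest mean was in vehicle for 11, at 30 mg/kg for 42, at 150 mg/kg for 26 and at 400 mg/kg for 21 members, and the highest in vehicle for 35, at 30 mg/kg for 19, at 150 mg/kg for 11 and at 400 mg/kg for 35. A high place for vehicle is favoured by the choice itself, which took the genes highest in the vehicle libraries.

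Other gene lists were read at 400 mg/kg in the same fit. At 400 mg/kg against vehicle, 0 of the next 100 restricted genes in rank were called, and their lowest edgeR adjusted p was 0.0774. Their median log2 fold change was -0.001. An unadjusted p under 0.05 was found for 20 of these 100 and for 3402 of all 17261 genes tested. Of the 6306 other restricted genes tested, those 100 included, 82 rose and 69 fell, 2.39% of them, with a median of 0.012. Of the 113 other genes of the same level, 1 rose and 2 fell, 2.65%, with a median of -0.001. The difference between the members and these lists was not tested.

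In liver, a few members could be tested at all. Only 17 of 100 had enough reads to enter the liver fit, and a member that entered through a dose group in which it was high had to differ, so the number called says nothing about the list. The choice of genes that were low in vehicle liver also favours higher values in the other liver groups. At 400 mg/kg 2 of the 17 were higher and 2 lower by edgeR, where 19.6% of all liver genes tested were called, 9.97% higher and 9.67% lower. ENSRNOG00000020132 (rank 72) had 35 to 206 reads at 400 mg/kg, with a median of 94, and 8 to 43 reads in vehicle, with a median of 28. The ranges overlap at their ends, and the log2 fold change was 1.71 (SE 0.371, edgeR adjusted p = 0.00226). It averaged 2.48 ± 1.55 CPM at 400 mg/kg and 0.715 ± 0.304 CPM in vehicle (SD, n = 6 each), so its mean passed the 1 CPM limit at 400 mg/kg. Its liver mean was 1.24 CPM at 150 mg/kg and 0.73 CPM at 30 mg/kg, the latter under the limit.

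ENSRNOG00000031707, the member also called over the 4 groups in testis, had 7 to 17 liver reads at 400 mg/kg, with a median of 12.5, and 0 to 9 in vehicle, with a median of 2.5. Its log2 fold change in liver was 1.77 (SE 0.561, edgeR adjusted p = 0.0291). No vehicle liver library held more than 9 reads, so it entered the fit only through dosed groups where it was high. It was also chosen for a low level in vehicle liver, so its liver p-values are a description and no support. The call ended without vehicle 2403, 2405 or 2406 or without 400 mg/kg 2421 or 2423, with an adjusted p of at most 0.0578. At 150 mg/kg its liver fold change against vehicle was 2.14 (SE 0.548, edgeR adjusted p = 0.0465), from 6 to 26 reads per library.

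The other pair fell in liver, where both were under 1 CPM in either group. ENSRNOG00000012260 averaged 0.313 ± 0.0861 CPM at 400 mg/kg and 0.597 ± 0.156 CPM in vehicle, a log2 fold change of -1.0 (SE 0.224, edgeR adjusted p = 0.00276). ENSRNOG00000007771 (rank 60) averaged 0.274 ± 0.0758 CPM at 400 mg/kg and 0.477 ± 0.0731 CPM in vehicle, a log2 fold change of -0.87 (SE 0.240, edgeR adjusted p = 0.0123; SD, n = 6 each). In testis none of these 4 was called at 400 mg/kg, with log2 fold changes of 0.04, -0.09, -0.05 and -0.11. Summed over all 100 members, liver held 12.4 ± 1.76 CPM at 400 mg/kg and 10.3 ± 0.743 CPM in vehicle (SD, n = 6 each), with ranges of 10.4 to 15.4 and 8.99 to 10.9 CPM that overlap. Without ENSRNOG00000020132 the sums were 9.88 ± 0.758 CPM at 400 mg/kg and 9.55 ± 0.519 CPM in vehicle (SD, n = 6 each), so that 1 member made up most of the difference.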

How the data were processed

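Poly-A RNA of rat liver and testis was sequenced in 48 libraries. Per the submitters' processing notes, CASAVA 1.8, HISAT2 and HTSeq 0.6.1 were used. Neither the genome build nor the counting's strand setting is named. As deposited, each library has a file of raw whole-number counts of reads for every Ensembl gene, not normalised by the authors, plus 5 lines that belong to no gene. Those lines held 34.9% to 36.9% of reads in testis and 39.8% to 46.1% in liver and were left out. Reads with several alignments were not counted for any gene, so members with near-identical copies are less certain.

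Groups came from the titles and the dose label, 6 libraries each. Testis 2407 and 2408 are titled vehicle at dose 0, while their exposure label reads myclobutanil; they stayed in the vehicle group, and an alternative drops the pair. Sequencing sets were inferred: the first has over 2.7% of reads of low mapping quality in testis, the third over 40 M testis gene reads (2408, 2414, 2415 and 2421), and the second is the rest.

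CPM values and shares use gene reads as the total. Tests were run per tissue on all 24 libraries and all genes that passed filterByExpr, 17261 in testis and 13275 in liver, with edgeR 4.0.16 in R 4.3.3: TMM scaling, a robust quasi-likelihood fit, 2-sided tests and Benjamini-Hochberg adjustment, with a call at an adjusted p under 0.05. All 100 members entered the testis fit. The steps were tested on simulated counts. Alternatives included DESeq2 1.42.0 and limma-voom with quality weights for the libraries (limma 3.58.1).

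The members and lists were chosen with earlier results of these data known. Of the 32545 IDs, 0 matched the reference table of 47357 genes of GRCr8, so the marker and function lists could not be applied and no promoter or protein could be assigned to a member. The rule for named genes allows without symbols at most 2 IDs that rose and 2 that fell; all 3 that fell, the 4 called in liver and the members at an end of a range were named after their values were seen.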

Additional observations from a re-analysis of the deposited data

Results flagged for a closer look

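Dixon's test was applied to 60 sets of 6 libraries, and in 4 of them 1 library stood apart, where chance marks about 1 in 20. That rate does not apply to ENSRNOG00000031106 and ENSRNOG00000005382, which were put among the sets after their outlying values were seen. Their flags are a description only. The summed share of the members was 16.7% in 30 mg/kg testis library 2412 and 16.1% in 150 mg/kg library 2419, each apart from the 5 others of its group. ENSRNOG00000031106 stood apart at 941 CPM in vehicle testis 2407, 1 of the 2 vehicle libraries with conflicting labels, and ENSRNOG00000005382 at 375 CPM in 30 mg/kg testis 2413. At 400 mg/kg ENSRNOG00000031707 had a log2 fold change of 1.77 in liver, from 7 to 17 reads at 400 mg/kg and 0 to 9 in vehicle. All 6 libraries lay above the vehicle mean. It was chosen for a low level in those vehicle livers and entered the liver fit through the dosed groups, so this is a description only. In testis its log2 fold change was -0.09 (SE 0.044, edgeR adjusted p = 0.274), which did not pass the test, with 0 of 6 libraries above the vehicle mean. The difference between the tissues was not tested.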

How the results depend on the processing

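No paired analysis was possible because the dose groups of 1 tissue share no title number, and the numbers are shared only between liver and testis, a contrast that chose the members. The fits read without 30 mg/kg 2412, and the component analysis on plain CPM, were added after seeing the data. The counts of members called in this section have no share over all genes beside them. They show how each count moved with the setting and are no result about the list. The count of members called at 400 mg/kg against vehicle, 3, was 5 with library totals, with DESeq2 and with limma-voom, 6 with only the 12 libraries compared, 1 among the 50 most abundant members, and 0 with no filter, without vehicle 2407 and 2408, and with the sequencing set in the fit at 2 or 3 levels. Without 1 library it was 0 to 3. The count over the 4 dose groups, 1, was 6 with DESeq2 and with limma-voom and 0 with RLE size factors, library totals, no filter, without vehicle 2407 and 2408, with either form of the set and among the 50 most abundant; without 1 library it was 0 to 7. Counts that were 0 became 1 with DESeq2 at 30 mg/kg against vehicle and at 150 against 30 mg/kg, 1 with library totals, 2 with DESeq2 and 1 with limma-voom at 400 against 150 mg/kg (0 to 1 without 1 library), 1 with limma-voom at 400 against 30 mg/kg (0 to 3) and 2 with DESeq2 among the 3 doses (0 to 4). The upper ends of 3, 4 and 7 came from leaving out 2412. At 150 mg/kg against vehicle it was 0 in all 30 alternatives. The liver count, 4, was 3 to 5, and 3 to 4 without 1 library. The median CV at 30 mg/kg, 6.67%, was 11.1% on TMM-scaled CPM and 4.62% to 5.54% without 2412. The summed share differed from vehicle by -0.044 to 0.145 percentage points at 400 mg/kg, -0.335 to -0.034 at 150 mg/kg and -0.697 to -0.18 at 30 mg/kg over 23 alternatives, each within 1 SD of the reported value. The first component held 37.7% to 51.2% of the variance under its alternatives. The cause of these changes was not tested.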
